A study of Mus musculus with 18 samples.

Results

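Interferon-stimulated genes were examined in cultured mouse mammary fibroblasts as a set of 38 genes, taken from the count table by gene symbol from a list of antiviral effectors, nucleic acid sensors, interferon-inducible GTPases, chemokines and the transcription factors that switch them on. All 38 were among the 55486 genes of the table and 33 passed the filter on low counts, which kept 14273 genes in all. The study asked how normal fibroblasts (NFs) of the mammary gland respond to factors secreted by tumour cells. RNA was sequenced from 18 libraries in 4 groups, all from female adult FVB/n mice, several of which were pooled for a sort. Replicates 1 to 3 (n = 3) were CD26- NFs kept in control conditioned medium and replicates 4 to 9 (n = 6) the same cells in tumour conditioned medium (CM). Replicates 10 to 12 (n = 3) were CD26+ NFs with control medium, and replicates 13 to 18 (n = 6) those with tumour CM. The fibroblasts were sorted as cells without EpCAM, CD49f, CD45 and CD31, split by the surface peptidase CD26, and cultured for 7 days. The CM came from 6 cell lines (13-MCB-17, 10-SJK-221, 18-MCB-12, 13-MCB-44, 13-MCB-90 and 13-MCB-138) grown from WEPtn tumours. These tumours model invasive lobular carcinoma in mice in which WapCre, driven in mammary epithelium, removes floxed alleles, among them Cdh1 (E-cadherin). Within a cell type the CM of a line went to 1 culture, so a line has no repeat within a cell type. The labels do not say whether the 3 control cultures of a cell type came from separate sorts, so p-values measure the spread between these cultures, which may be technical.

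Interferons are cytokines that cells release when they sense viral or displaced nucleic acids. Type I interferons bind the receptor pair IFNAR1 and IFNAR2, which activates the kinases JAK1 and TYK2, and a complex that holds STAT2 and IRF9 then binds the interferon-stimulated response element (ISRE) in target promoters. Interferon gamma binds IFNGR1 and IFNGR2, and its signal acts through the gamma-activated site (GAS). The targets include proteins that block viral RNA and protein synthesis, sensors that amplify the signal and GTPases that attack the vacuoles of intracellular pathogens. Many of them are also expressed at a low level without added interferon.

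Member promoters were searched for the letters of both elements. RefSeq promoters (GRCm38.p6, 250 bases before to 50 after a gene start) were found for 29 of the 38 symbols. No entry was found for Rtp4, Oas2, Usp18, Mx2, Zbp1, Mx1, Parp14, Dhx58 and Iigp1. The ISRE was searched as GAAANNGAAA and its reverse complement TTTCNNTTTC, and the GAS as TTCNNNGAA, which reads the same on both strands. The ISRE letters occurred in 48.5% of 33 member promoters and in 3.44% of all 32851 promoters, and the GAS letters in 27.3% and 8.30%. Overlapping matches were counted separately. The sequences are the 250 bases before the RefSeq start, 5′ to 3′ on the strand of the gene, with the motif matches in capitals, for members that were chosen for holding a match there, in the order of their p in a CM effect. Oasl2, Samd9l and Ifi44, which were also called in a CM effect, held neither motif and are not shown. They lie at chr3:142559794-142560043 (+) for Gbp3, chr19:34550444-34550693 (+) for Ifit2, chr3:142620413-142620662 (+) for Gbp2, chr11:53769764-53770013 (+) for Irf1 and chr11:48871421-48871670 (-) for Irgm1.
Gbp3: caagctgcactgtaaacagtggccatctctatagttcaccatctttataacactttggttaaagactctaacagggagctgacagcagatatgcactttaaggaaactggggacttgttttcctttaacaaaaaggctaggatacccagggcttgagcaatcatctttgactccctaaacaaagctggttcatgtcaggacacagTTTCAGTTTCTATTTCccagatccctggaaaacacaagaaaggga
Ifit2: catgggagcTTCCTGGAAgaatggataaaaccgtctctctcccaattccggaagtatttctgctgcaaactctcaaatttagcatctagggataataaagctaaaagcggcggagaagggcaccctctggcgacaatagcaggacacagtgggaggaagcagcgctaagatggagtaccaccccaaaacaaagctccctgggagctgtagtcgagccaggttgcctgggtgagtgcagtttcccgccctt
Gbp2: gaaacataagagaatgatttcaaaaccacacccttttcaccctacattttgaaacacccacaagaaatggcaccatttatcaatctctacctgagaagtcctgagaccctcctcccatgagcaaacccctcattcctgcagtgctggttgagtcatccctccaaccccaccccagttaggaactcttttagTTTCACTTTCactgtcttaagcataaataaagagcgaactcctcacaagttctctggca
Irf1: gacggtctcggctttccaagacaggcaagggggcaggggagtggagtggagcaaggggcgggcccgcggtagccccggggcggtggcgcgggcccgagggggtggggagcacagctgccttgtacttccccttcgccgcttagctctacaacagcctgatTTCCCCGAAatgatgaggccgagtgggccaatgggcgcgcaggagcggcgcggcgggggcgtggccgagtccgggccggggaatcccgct
Irgm1: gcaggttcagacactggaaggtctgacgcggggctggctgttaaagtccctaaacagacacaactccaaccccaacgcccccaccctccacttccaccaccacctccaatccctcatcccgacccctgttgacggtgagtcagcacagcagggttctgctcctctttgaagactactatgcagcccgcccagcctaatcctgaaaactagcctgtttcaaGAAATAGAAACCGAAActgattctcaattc
Gbp3 and Irgm1 each held 2 overlapping ISRE matches, and Gbp2 held 1. Ifit2 and Irf1 held a GAS match and no ISRE match. In Ifih1 the only match, GAAACAGAAA, began 32 bases after the start, so its upstream window is not shown. Gbp3, Ifit2 and Irf1 each have another RefSeq start whose window held neither motif. By the gene coordinates of the count table, which begin further upstream than RefSeq for these genes, the Gbp2 match and the whole Irgm1 window lie inside the gene. A match is a run of letters and not evidence of binding in these cells.

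Most members were present but low. In CD26- NFs in control medium 34 of the 38 had more than 3 counts in every library and 35 in at least 1 library. In CD26- NFs in tumour CM these were 30 and 35, in CD26+ NFs in control medium 28 and 32, and in CD26+ NFs in tumour CM 31 and 37. Above 3 counts in some libraries but not in every one of a group were Mx1 in CD26- control, Ifit3, Mx1, Mx2, Cmpk2 and Cxcl10 in CD26- CM, Rsad2, Oas1a, Gbp5 and Cxcl10 in CD26+ control, and Ifit3, Mx1, Mx2, Cmpk2, Gbp5 and Cxcl9 in CD26+ CM. Oas2, an oligoadenylate synthetase, had no library above 3 counts in any group. Gbp5 and Cxcl9 were at or under 3 counts in all CD26- libraries. In CD26+ control libraries, Ifit3, Oas2, Mx1, Mx2, Cmpk2 and Cxcl9 had none above 3 counts. Mx1, which encodes a dynamin-like GTPase that blocks viral replication, reached 4 counts at most. Cxcl9, a T cell chemoattractant, reached 8 counts in the CD26+ library with CM of line 13-MCB-17 and 5 counts in that of line 18-MCB-12. Cxcl10, another such chemokine, lay between 6 and 12 counts in CD26- control libraries, 2 and 7 in CD26- CM libraries, 1 and 7 in CD26+ control libraries and 4 and 12 in CD26+ CM libraries. Oas2, Mx1, Gbp5, Cxcl9 and Cxcl10 were the 5 members that did not pass the filter, and they enter no count of tests. At the other end, Trim25, an E3 ubiquitin ligase of RNA sensing, lay between 60.5 and 90.3 CPM (counts scaled to library size, with TMM factors) over the 18 libraries, and Lgals3bp, a secreted glycoprotein that binds galectins, between 54.3 and 240 CPM.

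Library totals ran from 9725723 to 14585349 counts, and no library was left out. The summed level of the fibroblast markers lay between 16525 and 18490 CPM in CD26- control libraries and 9813 and 21488 CPM in CD26- CM libraries. In CD26+ NFs it lay between 62522 and 79501 CPM in control and 29191 and 52131 CPM in CM, without overlap, and its part in the member changes was not tested. The leukocyte markers Ptprc, Adgre1, Itgam, Cd3e, Siglech and Itgax had at most 3 counts in any library. Cd68 and Lyz2 had 5 to 48 counts and Csf1r 142 to 338 counts, and the summed level of the leukocyte list lay between 14.8 and 29.9 CPM. Mammary epithelial markers were present although the sort had excluded EpCAM. The summed level of 7 such genes (Epcam, Cdh1, Krt8, Krt18, Krt5, Krt14, Krt19) lay between 3745 and 4100 CPM in CD26- control libraries, 2369 and 3844 CPM in CD26- CM libraries, 625 and 1107 CPM in CD26+ control libraries and 570 and 1368 CPM in CD26+ CM libraries. Thus the cell types did not overlap in it, and 6 of the 7 genes were lower in CD26+ NFs in either medium, whereas the smallest FDR of a CM effect among the 7 was 0.0644, for Krt14 in CD26- NFs (log2 fold change -0.85). Dpp4, which encodes CD26, had at most 2 counts in control libraries of either cell type. It had 1 to 11 counts in CD26- CM libraries and 8 to 104 counts in CD26+ CM libraries, ranges that overlap. Thus the labels CD26- and CD26+ describe the sort and not the transcript in control medium. In bulk RNA, a lower share of cells of a type and less RNA per cell cannot be told apart.

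**Figure D1:**
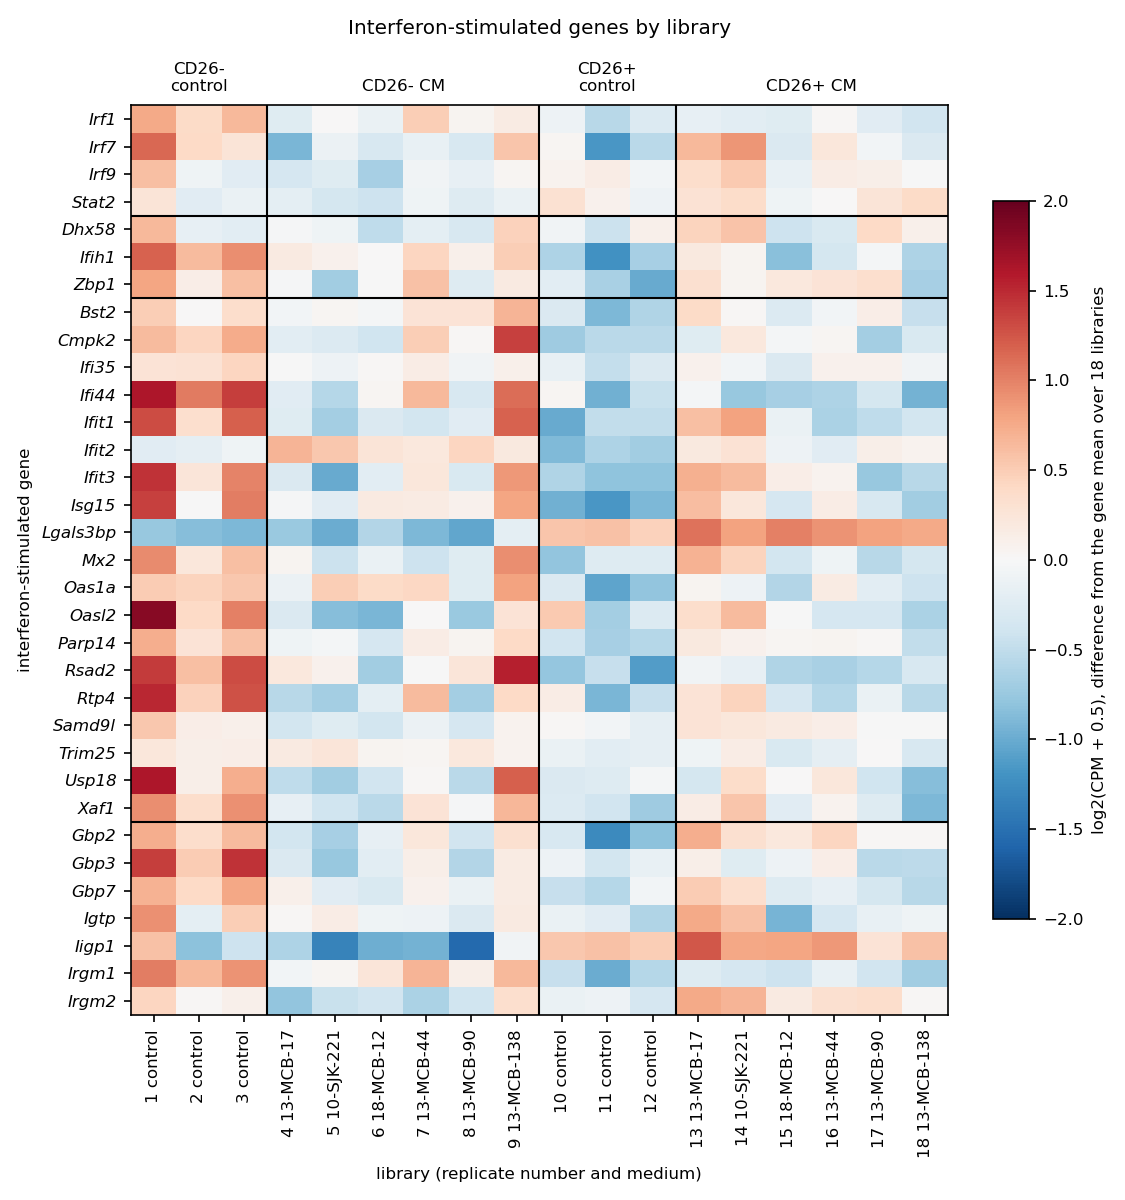
Level of the 33 tested members in each of the 18 libraries, as log2(CPM + 0.5) relative to the mean of the gene over all libraries (red above, blue below the mean). Columns are libraries by group, labelled with the replicate number and the tumour line, and rows are ordered as transcription factors, sensors, antiviral effectors and GTPases. CD26- control libraries 1 and 3 are red in most rows, library 9 is the reddest of the CD26- CM libraries for 25 of 33 genes, and CD26+ control libraries are blue in most rows.

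The first comparison asked what tumour CM changed in CD26- NFs. Most calls were downward, as 12 of 33 tested members were lower in CM at a false discovery rate (FDR, Benjamini-Hochberg over all tested genes, edgeR quasi-likelihood test) under 0.05, against 7.28% of all tested genes. They were Gbp3, Oasl2, Samd9l, Irf1, Rtp4, Ifih1, Ifi44, Irgm1, Parp14, Gbp7, Gbp2 and Ifi35. A single member rose, Ifit2, against 7.88% of all tested genes. The fitted change was below 0 for 31 of 33 members, with a median log2 fold change of -0.62 where the median over all tested genes was 0.01. None passed the further limit of the study, a log2 fold change over 2 or under -2, which 0.904% of all tested genes passed.

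The largest falls were in GTPases and antiviral effectors. Gbp3, a guanylate-binding protein whose promoter is shown above, stood at 5.42, 2.73 and 5.69 CPM in control libraries and from 0.842 to 2.03 CPM (median 1.41) in CM libraries. Every CM library lay below every control library, with a log2 fold change of -1.69 ± 0.265 (SE) and an FDR of 0.000665. Oasl2, a relative of the oligoadenylate synthetases, stood at 12.0, 4.19 and 6.63 CPM in control and from 1.39 to 3.80 CPM (median 2.02) in CM. The groups did not overlap either, at -1.73 ± 0.377 (FDR 0.00596), although control library 1 was far above the other two. Rtp4, a restrictor of viral replication, stood at 4.94, 2.14 and 4.13 CPM in control and from 0.698 to 2.48 CPM (median 0.986) in CM. The highest CM library, that of line 13-MCB-44, was above control library 2, and the change was -1.51 ± 0.398 (FDR 0.0172). Ifi44, an interferon-induced protein that accumulates in the cytoplasm, stood at 5.61, 3.59 and 4.67 CPM in control and from 0.842 to 3.80 CPM (median 1.37) in CM. Its groups touched through line 13-MCB-138 alone, and it fell by 1.34 on the log2 scale (SE 0.358, FDR 0.0186).

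Gbp2, Gbp7 and Irgm1, the other GTPases called lower, had smaller fitted changes than Gbp3, and the remaining 3 tested (Iigp1, Igtp and Irgm2) did not pass. Gbp7 (142530342 to 142550149), Gbp3 (142560026 to 142573209) and Gbp2 (142620602 to 142638008) lie in this order on chromosome 3. Gbp2 stood at 21.1, 16.2 and 19.9 CPM in control and from 7.72 to 15.8 CPM (median 10.4) in CM, and Gbp7 at 6.20, 4.95 and 6.57 CPM against 2.85 to 4.16 CPM (median 3.58). Neither gene overlapped between the groups. The changes were -0.74 ± 0.217 (FDR 0.0288) and -0.75 ± 0.219 (FDR 0.0278). Irgm1, which regulates other GTPases of its family and carried 2 ISRE matches, was the highest GTPase member in these cells, at 50.6, 38.9 and 46.4 CPM in control and from 23.7 to 39.4 CPM (median 27.9) in CM. The CM library of line 13-MCB-44 lay just above control library 2, and the change was -0.58 ± 0.158 (FDR 0.0209).

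Among the regulators, the transcription factor Irf1 stood at 45.5, 34.7 and 42.0 CPM in control and from 22.3 to 37.7 CPM (median 27.2) in CM. The CM library of line 13-MCB-44 reached into the control range, and Irf1 fell by 0.54 on the log2 scale (SE 0.135, FDR 0.0133). Ifih1, which encodes the sensor of long double-stranded RNA known as MDA5, stood at 19.2, 12.9 and 16.1 CPM in control and from 8.27 to 11.7 CPM (median 9.11) in CM. All CM libraries were below all control libraries, at -0.73 ± 0.196 (FDR 0.0186). Irf7, Irf9 and Stat2, the other transcription factors, had fitted changes of -0.96, -0.37 and -0.22 and did not pass the test.

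Samd9l, an inhibitor of viral protein synthesis, stood at 35.1, 26.5 and 25.8 CPM in control and from 18.4 to 25.4 CPM (median 19.6) in CM, without overlap. It changed by -0.50 ± 0.111 (FDR 0.00675). Parp14, a mono-ADP-ribosyltransferase, stood at 36.0, 26.0 and 32.6 CPM in control and from 17.0 to 28.6 CPM (median 21.6) in CM. Only the CM library of line 13-MCB-138 exceeded a control library, and the change was -0.51 ± 0.146 (FDR 0.0257). Ifi35, which forms a complex with NMI, stood at 9.58, 9.74 and 10.7 CPM in control and from 7.30 to 8.71 CPM (median 7.91) in CM. The groups did not overlap, and the fall was the smallest of the 12, at -0.33 ± 0.101 (FDR 0.0341).

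Ifit2, which binds viral RNA and blocks its translation, lies on chromosome 19 (34550694 to 34576419) beside Ifit3 (34583531 to 34588731) and near Ifit1 (34640871 to 34650009). Ifit2 stood at 10.3, 10.6 and 11.4 CPM in control and from 13.9 to 19.7 CPM (median 15.5) in CM. All 6 CM libraries were above all 3 control libraries, at 0.58 ± 0.128 (FDR 0.00661). Ifit1 and Ifit3 had fitted changes of -1.15 ± 0.434 (FDR 0.0807) and -1.57 ± 0.609 (FDR 0.0886) that did not pass, and they were not tested against Ifit2. Part of the Ifit3 reads can belong to its near-identical copy Ifit3b, which had 5 to 14 counts in CD26- control libraries, so its count is uncertain.

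The count of 12 rested on the control libraries. Without replicate 1 a single member fell, and without replicate 3 there were 3, while the calls over all tested genes, in either direction, went from 2164 to 1099 and 825. Replicate 1 was the highest control library for 27 of 33 members and replicate 2 the lowest for 26. Without the CM library of line 13-MCB-138 the count was 21, with 2452 calls over all genes. With the mean level of the epithelial markers as a further term, chosen after seeing the data, 3 members fell, with 965 calls over all genes, and the summed epithelial level was itself lower in 5 of 6 CM libraries than in the lowest control library. Gbp3 and Ifit2 passed in all 24 alternative fits.

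The second comparison asked the same of CD26+ NFs, where the calls were upward. Of 33 tested members 8 rose in CM (Ifit2, Gbp2, Parp14, Isg15, Irgm2, Bst2, Ifih1 and Ifi35), against 15.2% of all tested genes, and 0 fell in edgeR and in DESeq2, against 13.4%. At an unadjusted p under 0.05 there were 13 higher and 0 lower, where 5656 of all 14273 tested genes lay under it in either direction. The fitted change was above 0 for 32 of 33 members, all but Ifi44, with a median log2 fold change of 0.52 where the median over all genes was 0.00. None passed the log2 limit, which 2.01% of all tested genes passed.

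Ifit2 rose in these cells too. It stood at 6.31, 7.70 and 7.27 CPM in control libraries and from 10.2 to 14.9 CPM (median 12.9) in CM libraries. The groups were fully apart, at 0.83 ± 0.135 (FDR 0.000218). Gbp2 stood at 9.96, 4.89 and 6.90 CPM in control and from 12.9 to 21.1 CPM (median 15.3) in CM, highest with CM of line 13-MCB-17. It rose by 1.13 ± 0.241 on the log2 scale (FDR 0.00211), again without overlap. Isg15, a ubiquitin-like modifier, stood at 1.70, 1.41 and 1.78 CPM in control and from 2.14 to 6.06 CPM (median 3.56) in CM. Its 3 control libraries were nearly level and below all CM libraries, and the change was 1.23 ± 0.374 (FDR 0.0204).

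Parp14 stood at 16.3, 13.4 and 14.2 CPM in control and from 15.2 to 24.6 CPM (median 22.2) in CM. Of the CM libraries, that of line 13-MCB-138 alone reached down into the control range, and the change was 0.55 ± 0.157 (FDR 0.0135). Irgm2 stood at 4.69, 4.82 and 4.01 CPM in control and from 5.27 to 9.10 CPM (median 6.66) in CM, with no overlap. It rose by 0.65 ± 0.224 (FDR 0.0376). Irgm2 (chromosome 11, 58199618 to 58222782) overlaps Igtp (58199556 to 58207591) on the same strand, so their counts may not be independent.

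Bst2, also called tetherin, holds budding virus at the cell surface. It stood at 7.04, 4.44 and 5.57 CPM in control and from 6.17 to 11.5 CPM (median 8.59) in CM, and the CM libraries began within the control range. The change was 0.60 ± 0.211 (FDR 0.0397). Ifih1 stood at 5.18, 3.26 and 4.97 CPM in control and from 4.39 to 9.48 CPM (median 7.16) in CM, with a change of 0.65 ± 0.231 (FDR 0.0421). Ifi35 stood at 7.04, 5.48 and 6.31 CPM in control and from 6.33 to 8.40 CPM (median 7.92) in CM, and changed by 0.30 ± 0.107 (FDR 0.0425). Both genes overlapped between media.

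This count also changed with single libraries. It was 2 without control replicate 11 or 12, 4 without replicate 13 or 14, 5 without replicate 3 or 17, and 6 without replicate 16. Replicate 3 is a CD26- library, which enters this comparison only through the shared filter, scaling and spread. The calls over all genes, 4087 with all libraries, were 2756 and 2966 without replicates 11 and 12. They were 3572, 3447, 4066, 3544 and 4180 without replicates 13, 14, 3, 17 and 16. Ifit2 and Gbp2 passed in all 24 alternative fits. With the epithelial term 10 members rose, where 2219 of all genes rose, against 2169 without it. The summed epithelial level overlapped between media in CD26+ NFs, whereas that of the fibroblast markers did not.

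**Figure D2:**
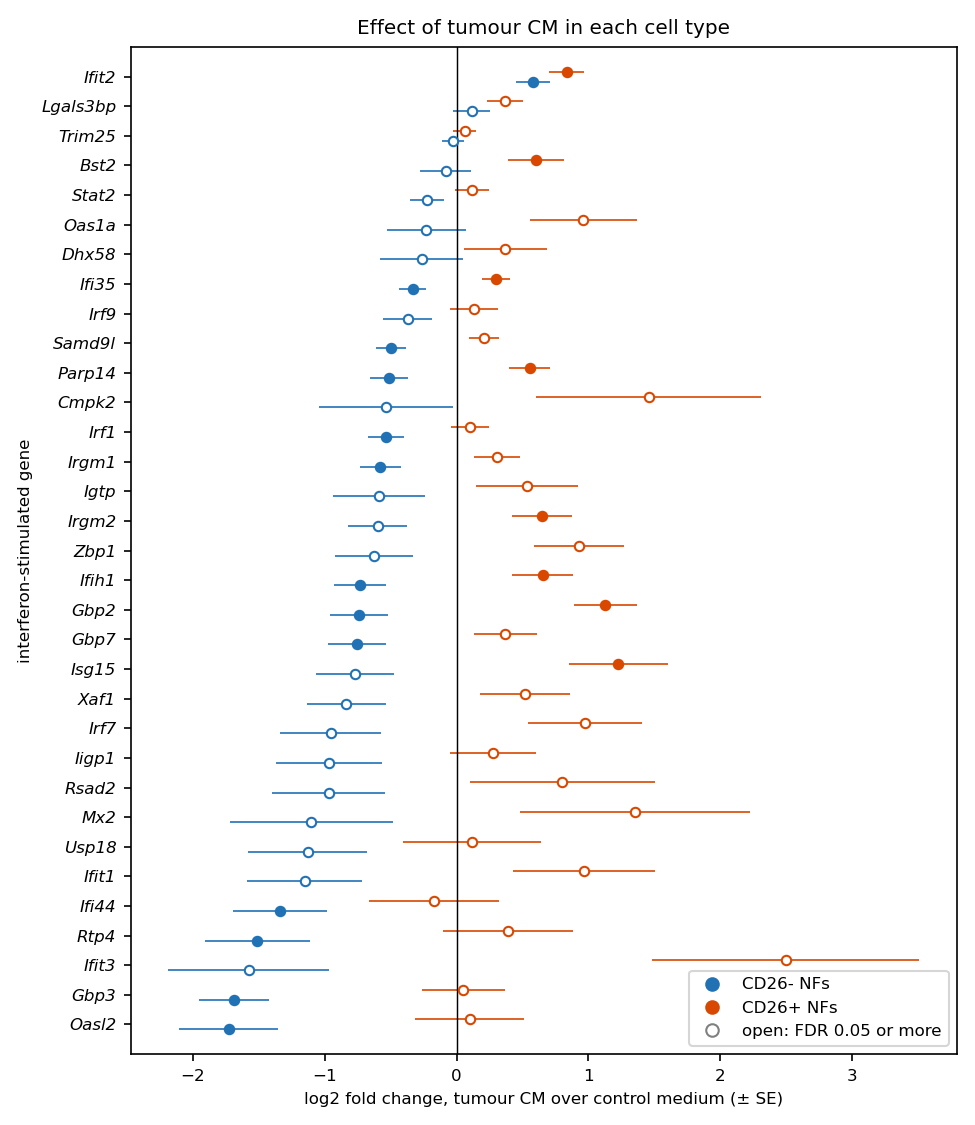
Log2 fold change of each tested member in tumour CM over control medium (horizontal axis, ± SE), in CD26- NFs (blue) and CD26+ NFs (orange), ordered by the value in CD26- NFs. Filled points passed an FDR of 0.05. Blue points lie left of 0 for 31 of 33 genes and orange points right of 0 for 32 of 33, with Ifit2 filled on the right in both cell types.

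Whether CM acted differently on the cell types was tested as the difference of the CM effects. It was above 0, meaning a higher CM effect in CD26+ NFs, for all 33 tested members, and 12 passed (Gbp2, Parp14, Ifih1, Samd9l, Ifi35, Gbp3, Isg15, Irgm2, Irgm1, Ifit3, Gbp7 and Zbp1), against 4.53% of all tested genes. None passed in the other direction in edgeR or DESeq2, against 3.01%, and at an unadjusted p under 0.05 there were 24 above 0 and 0 below, where 3603 of all 14273 tested genes lay under it. The median was 1.24, and 0.01 over all genes. The difference uses the same control libraries as both CM effects, so it is not a further observation of them.

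These 12 genes fell into 4 patterns. Gbp2, Parp14, Ifih1 and Ifi35 were called lower in CD26- NFs and called higher in CD26+ NFs, with differences of 1.87 ± 0.323 (FDR 0.00427), 1.07 ± 0.215 (FDR 0.00795), 1.38 ± 0.303 (FDR 0.0124) and 0.63 ± 0.147 (FDR 0.0163). Samd9l, Gbp3, Irgm1 and Gbp7 were called lower in CD26- NFs only. Gbp3 in CD26+ NFs stood at 1.62, 1.26 and 1.56 CPM in control and from 1.06 to 1.98 CPM (median 1.51) in CM, a fitted change of 0.05 that did not pass, and the difference was 1.74 ± 0.412 (FDR 0.0178). Samd9l stood at 24.4, 23.1 and 21.1 CPM in control and from 23.8 to 29.1 CPM (median 26.8) in CM, with a difference of 0.71 ± 0.159 (FDR 0.0140).

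Irgm1 in CD26+ NFs stood at 17.7, 12.1 and 16.4 CPM in control and from 14.9 to 22.1 CPM (median 19.0) in CM, and its difference was 0.88 ± 0.236 (FDR 0.0312). Gbp7 stood at 2.51, 2.30 and 3.49 CPM in control and from 2.32 to 5.38 CPM (median 3.06) in CM, with a difference of 1.12 ± 0.327 (FDR 0.0444). In both genes the media overlapped within CD26+ NFs.

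Isg15 and Irgm2 were called higher in CD26+ NFs only. In CD26- NFs Isg15 stood at 10.5, 3.76 and 8.19 CPM in control and from 3.16 to 6.90 CPM (median 4.16) in CM, with control library 2 inside the CM range, and the difference was 1.99 ± 0.478 (FDR 0.0188). Irgm2 stood at 7.16, 5.30 and 5.62 CPM in control and from 2.80 to 6.63 CPM (median 3.73) in CM. The line 13-MCB-138 made the overlap, and the difference was 1.25 ± 0.316 (FDR 0.0247).

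Ifit3 and Zbp1 passed the test of the difference without passing in either cell type. Ifit3 was near the limit of detection, with 23, 8 and 22 counts in CD26- control libraries, 0 to 15 counts in CD26- CM libraries, 2, 1 and 1 counts in CD26+ control libraries and 1 to 15 counts in CD26+ CM libraries. In CPM these were 2.23, 0.683 and 1.49, then 0 to 1.33 (median 0.343), then 0.162, 0.0741 and 0.0742, then 0.0887 to 1.14 (median 0.573). The difference of 4.07 ± 1.17 (FDR 0.0417) was the only one of a member past the log2 limit, which 0.392% of all tested genes passed, and it depends on the 4 counts in the CD26+ control libraries. Zbp1, a sensor of Z-form nucleic acids that can start necroptosis, stood at 4.07, 2.39 and 3.52 CPM in CD26- control, from 1.12 to 3.45 CPM (median 2.10) in CD26- CM, at 1.78, 1.19 and 0.816 CPM in CD26+ control and from 1.16 to 2.84 CPM (median 2.61) in CD26+ CM. The media overlapped within both cell types, and the difference was 1.55 ± 0.453 (FDR 0.0455).

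The remaining members called in a single cell type did not pass the test of the difference. In CD26+ NFs Oasl2 stood at 4.61, 1.70 and 2.45 CPM in control and from 1.79 to 5.03 CPM (median 2.67) in CM. Rtp4 stood there at 1.62, 0.519 and 0.890 CPM in control and from 0.793 to 2.10 CPM (median 1.13) in CM. Ifi44 stood at 1.54, 0.519 and 0.965 CPM in control and from 0.536 to 1.44 CPM (median 0.776) in CM. In these 3 genes the media overlapped in CD26+ NFs and the CD26+ controls were lower than the CD26- controls by the test in control medium. Bst2 in CD26- NFs stood at 12.4, 8.71 and 11.2 CPM in control and from 8.33 to 14.2 CPM (median 9.78) in CM, with the ranges of the media overlapping.

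Without control replicate 11 the count of 12 was 2, without replicate 3 it was 4, without replicate 1 it was 6 and without replicate 12 it was 7. The calls over all genes were 339, 454, 625 and 554 in these fits, against 1075 with all libraries. Without CM replicate 9 the member count was 19, with 1109 calls over all genes. With the tumour line as a replicate block it was 16, with 2516 calls over all genes, and with the epithelial term it was 9, with 811. Gbp2 and Parp14 passed in all 24 alternative fits.

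**Figure D3:**
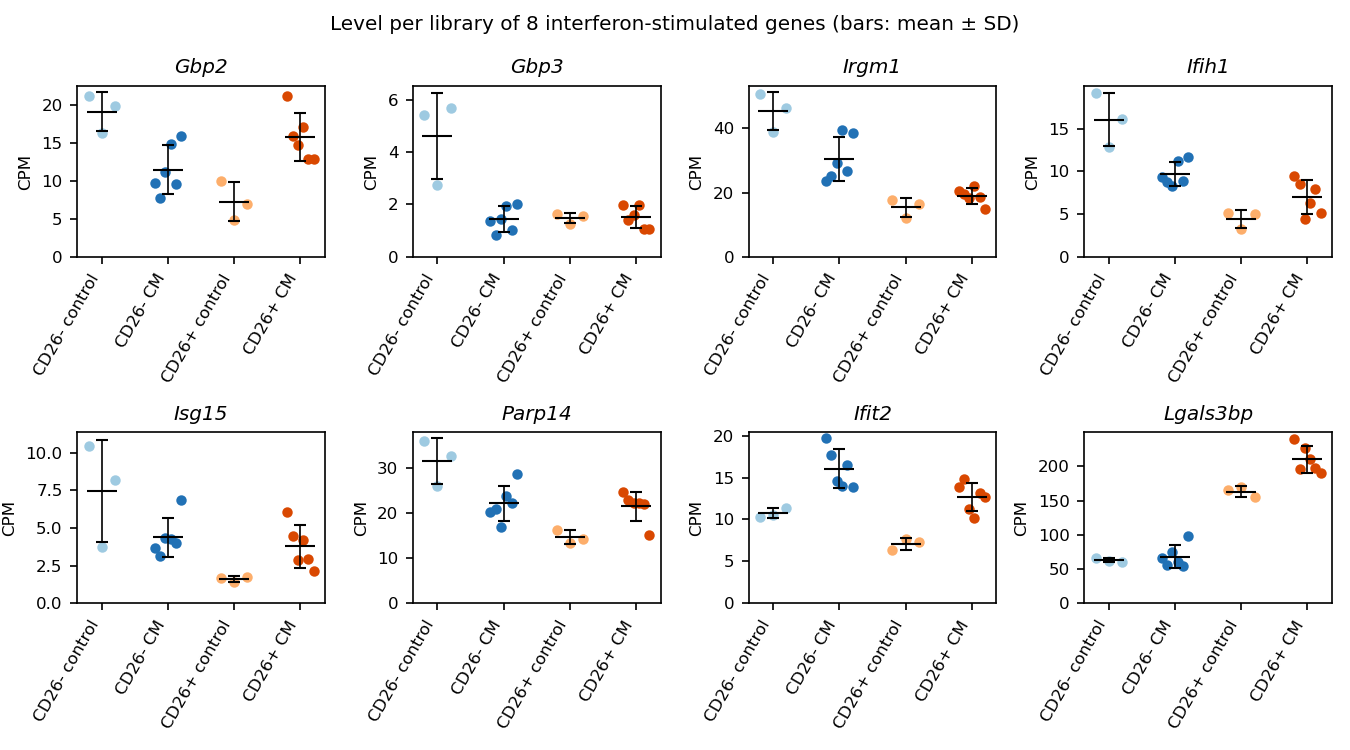
CPM in every library for 8 members, by group (n = 3, 6, 3 and 6), with the mean and SD as black bars and each vertical axis starting at 0. Gbp2 falls from 16.2 to 21.1 CPM in CD26- control libraries to a median of 10.4 CPM in CM and goes from 4.89 to 9.96 CPM in CD26+ control libraries to a median of 15.3 CPM, whereas Ifit2 is higher in CM in both cell types.

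The cell types were then compared in control medium, where members were mostly lower in CD26+ NFs. There 26 of 33 members were lower in CD26+ than in CD26- NFs, against 25.4% of all tested genes, and Lgals3bp was the single member that was higher, against 25.0%. The median log2 difference was -1.38, and 0.01 over all genes. Of the members, 7 passed the log2 limit, against 5.97% of all tested genes: Ifit3, Rsad2, Cmpk2, Mx2, Ifi44, Isg15 and Ifit1, all antiviral effectors and all lower in CD26+ NFs. Rsad2, which encodes viperin, stood at 3.19, 1.62 and 2.98 CPM in CD26- and at 0.324, 0.519 and 0.148 CPM in CD26+ control libraries, a difference of -2.94 ± 0.637 (FDR 0.000903). Ifit3, Cmpk2 and Mx2 had at most 3 counts in each CD26+ control library, so their differences of -3.71, -2.80 and -2.35 are only roughly measured. These genes passed the filter on libraries of other groups, where they were higher, so the count of 7 is not independent of the filter.

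By the smallest p, the clearest differences in control medium were in members with more counts. Lgals3bp stood at 66.5, 62.3 and 60.4 CPM in CD26- control libraries and at 165, 170 and 155 CPM in CD26+ control libraries, a difference of 1.37 ± 0.160 (FDR 1.99e-06). Irgm1 differed by -1.56 ± 0.195 (FDR 4.09e-06), Ifih1 by -1.84 ± 0.249 (FDR 9.54e-06) and Parp14 by -1.10 ± 0.176 (FDR 5.22e-05). Irf1 stood at 24.8, 17.9 and 22.0 CPM in CD26+ control libraries, -0.92 ± 0.162 relative to CD26- NFs (FDR 0.000134), and Ifi35 differed by -0.68 ± 0.120 (FDR 0.000150). In all 6 genes the 3 libraries of a cell type lay apart from the 3 of the other. This was likely for genes chosen by the smallest p in this comparison and is no further support. The share of all genes that lay apart was not counted. By group, 18 of 19 tested antiviral effectors, 4 of 7 GTPases (Irgm1, Gbp2, Gbp3 and Gbp7), 2 of 3 sensors (Ifih1 and Zbp1) and 2 of 4 transcription factors (Irf1 and Irf7) were lower.

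Most of these calls were lost with the epithelial markers as a further term. Leaving out 1 library left 21 to 27 members lower. With the epithelial term 1 of 33 was called lower (Ifit2, -1.05, FDR 0.0211) and 1 higher (Lgals3bp, 1.42, FDR 0.00856), while the calls over all tested genes went from 7186 to 1255. All 26 fitted differences stayed below 0 with that term, from -3.11 (Ifit3) to -0.14 (Bst2). Since the summed epithelial level did not overlap between the cell types, epithelial content and cell type cannot be told apart for any of the members, Ifit2 and Lgals3bp included.

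The same comparison in tumour CM gave calls in both directions, at shares no higher than those of all genes. Of 33 members, 7 were higher in CD26+ NFs (Lgals3bp, Iigp1, Irgm2, Stat2, Samd9l, Irf9 and Gbp2) and 8 lower (Irgm1, Trim25, Ifit2, Ifi44, Ifih1, Rsad2, Oas1a and Irf1). Over all tested genes 29.3% were higher and another 29.3% lower. With the epithelial term Irf1 (0.34), Ifih1 (0.058), Ifi44 (0.57) and Oas1a (0.21) turned to positive values that did not pass. The count of 8 was 3 without replicate 9 and 4 without replicate 7 or 15. The calls over all genes, in either direction, were 8238, 8127 and 7925 in these fits, against 8360 with all libraries. The median was 0.03, and that over all genes 0.00. Only Iigp1 passed the log2 limit, against 4.16% of all tested genes.

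Iigp1, an immunity-related GTPase, stood at 3.78, 1.11 and 1.62 CPM in CD26- control libraries and from 0.466 to 2.21 CPM (median 0.963) in CD26- CM libraries. In CD26+ NFs it stood at 3.64, 3.78 and 3.49 CPM in control and from 2.93 to 6.22 CPM (median 4.37) in CM. In CM the cell types did not overlap, at 2.02 ± 0.308 (FDR 2.19e-05). Lgals3bp ranged from 54.3 to 98.2 CPM (median 63.4) in CD26- CM libraries and from 190 to 240 CPM (median 204) in CD26+ CM libraries, the most certain difference of any member here, at 1.62 ± 0.113 (FDR 3.87e-09).

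Stat2, which carries the activation domain of the ISRE-binding complex, stood at 18.4, 13.0 and 13.9 CPM in CD26- control libraries, from 11.3 to 14.3 CPM (median 12.9) in CD26- CM libraries, at 18.9, 16.2 and 14.1 CPM in CD26+ control libraries and from 14.4 to 20.1 CPM (median 18.5) in CD26+ CM libraries. In CM the cell types lay just apart, at 0.47 ± 0.106 (FDR 0.00107). Irf9, its DNA-binding partner, was also higher in CD26+ NFs in CM, by 0.43 ± 0.151 (FDR 0.0213), with overlap. Irgm1 remained lower in CD26+ NFs, at -0.68 ± 0.137 (FDR 0.000383) without overlap, while Irgm2 was higher, at 0.83 ± 0.182 (FDR 0.000762), and Samd9l was higher by 0.36 ± 0.0921 (FDR 0.00260). With the tumour line as a replicate block the counts were again 7 and 8. With the epithelial term they were 3 (Lgals3bp, Iigp1 and Gbp2) and 1 (Ifit2), while the calls over all genes went from 8360 to 2048.

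Of the tested members without a call in a CM effect or in the difference, 8 are given by range: Ifit1, Oas1a, Mx2, Irf7, Irf9, Usp18, Xaf1 and Cmpk2. The highest library among them was at 18.7 CPM (Irf9, CD26- control replicate 1) and the lowest at 0 CPM (Mx2, CD26+ control replicate 10). In CD26- NFs all 8 had fitted CM effects below 0, from -1.15 (Ifit1) to -0.23 (Oas1a), and in CD26+ NFs all 8 were above 0, from 0.12 (Usp18, which removes ISG15 from proteins) to 1.46 (Cmpk2). Oas1a has close relatives in its gene cluster, so its reads may be shared with them. Irf9 overlaps Rnf31 on the same strand, and Irf7 overlaps Phrf1 and Irf1 overlaps Gm17334 on the other strand, where the strand setting of the count was not stated. Other tested members overlap genes too. On the same strand these are Parp14 (Gm49730), Gbp7 (Gm43802) and Rtp4 (Gm45338). On the other strand they are Rtp4 (Masp1), Ifi35 (Gm11626), Usp18 (Gm44148), Gbp2 (Mir6381) and Dhx58 (Dhx58os).

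The members were also described line by line. Relative to the mean of their own controls, the median member lay at -0.75 (13-MCB-17), -0.85 (10-SJK-221), -0.75 (18-MCB-12), -0.48 (13-MCB-44), -0.77 (13-MCB-90) and -0.11 (13-MCB-138) on the log2(CPM + 0.5) scale in CD26- NFs. In CD26+ NFs it lay at 0.68, 0.64, 0.19, 0.37, 0.18 and 0.11 for the same lines. On that scale the control libraries themselves lay at 0.25, -0.29 and 0.03 (replicates 1 to 3) and at 0.13, -0.07 and -0.04 (replicates 10 to 12). The libraries with CM of 13-MCB-138 were thus within the range of their controls in both cell types. A control library is part of the mean it is set against, which draws its value towards 0, so the control range is too narrow for a like comparison. Whether lines near that range lay outside it, such as 18-MCB-12 (0.19) and 13-MCB-90 (0.18) in CD26+ NFs, therefore cannot be said. CM of 13-MCB-138 gave the highest level of 25 of 33 members among the CD26- CM libraries, and the lowest level of 16 of 33 among the CD26+ CM libraries. CM of 13-MCB-17 was highest for 15 members and that of 10-SJK-221 for 11 in CD26+ NFs. Each of these values is a single culture, so the line and the culture cannot be told apart within a cell type.

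**Figure D4:**
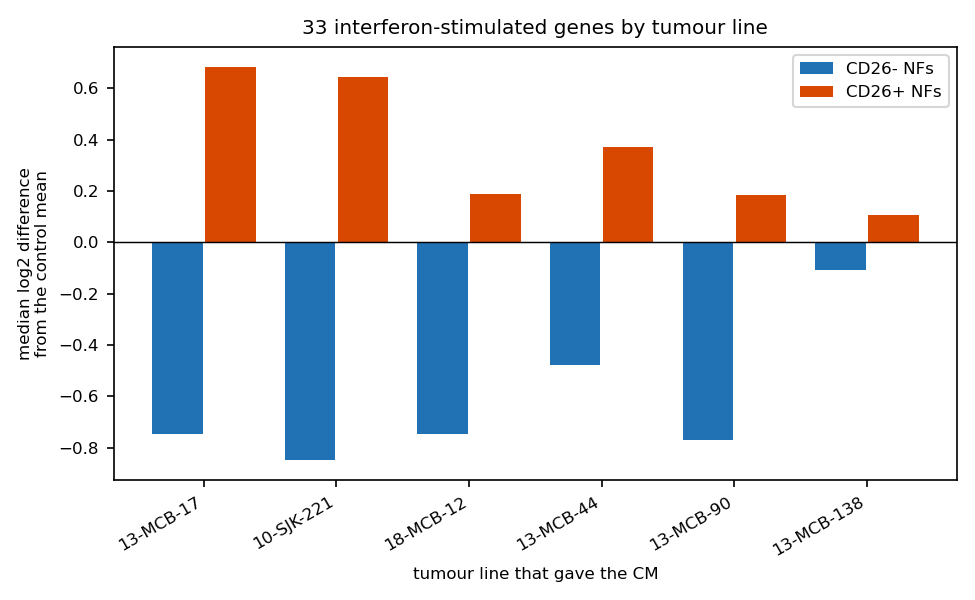
Median over the 33 tested members of the log2(CPM + 0.5) difference between each tumour CM library and the mean of the 3 control libraries of the same cell type, for the 6 tumour lines (horizontal axis) in CD26- NFs (blue) and CD26+ NFs (orange); each bar is 1 library. Blue bars run from -0.85 to -0.11 and orange bars from 0.11 to 0.68, with 13-MCB-138 nearest to 0 in both.

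Differences among lines shared by both cell types were tested over the 12 CM libraries with a term for cell type. Of the 30 members tested there, 0 passed in edgeR and 0 in DESeq2, against 6.56% of 13344 tested genes, and 3 had an unadjusted p under 0.05: Trim25, Ifit2 and Rsad2, with FDR of 0.0997, 0.121 and 0.181. Trim25 ranged from 78.0 to 90.3 CPM (median 82.7) in CD26- CM libraries, where the controls stood at 89.5, 82.3 and 83.0 CPM. In CD26+ CM libraries it ranged from 60.5 to 84.0 CPM (median 69.5), where the controls stood at 69.0, 65.8 and 67.2 CPM. In either cell type CM of 10-SJK-221 gave its highest level. Rsad2 ranged from 0.366 to 3.63 CPM (median 1.05) in CD26- CM libraries, with 13-MCB-138 far above the rest, and from 0.396 to 0.834 CPM (median 0.535) in CD26+ CM libraries.

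Irf1, Dhx58 and Igtp followed by p. Dhx58, which encodes the sensor LGP2, stood at 3.39, 1.71 and 1.62 CPM in CD26- control libraries and from 1.24 to 2.92 CPM (median 1.74) in CM, and at 1.86, 1.33 and 2.15 CPM in CD26+ control libraries and from 1.35 to 3.15 CPM (median 2.45) in CM. Igtp, a GTPase of the Irgm class, stood at 3.68, 1.45 and 2.64 CPM in CD26- control libraries and from 1.32 to 2.03 CPM (median 1.69) in CM, and at 1.54, 1.41 and 0.965 CPM in CD26+ control libraries and from 0.676 to 3.26 CPM (median 1.56) in CM. Irf1 in CD26+ CM libraries ranged from 20.2 to 27.0 CPM (median 22.7), and its highest level was with CM of 13-MCB-44 in both cell types. None of the 3 passed (FDR 0.242, 0.383 and 0.396). Without the CD26+ library of line 13-MCB-138, 4 members passed (Lgals3bp, Rsad2, Usp18 and Iigp1), where 1428 of 13477 genes did. Without the CD26- library of that line 2 members (Lgals3bp and Trim25) and 2060 of 13445 genes passed.

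The ligands that could drive these genes were not measurable. Of 21 interferon genes in the table (Ifna1, Ifna2, Ifna4, Ifna5, Ifna6, Ifna7, Ifna9, Ifna11, Ifna12, Ifna13, Ifna14, Ifna15, Ifna16, Ifnab, Ifnb1, Ifnz, Ifne, Ifnk, Ifng, Ifnl2 and Ifnl3), none was tested, and 20 had at most 1 count in any library. Ifnz reached 5 counts. Interferon protein in the CM itself was not measured by these libraries.

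The interferon receptors were expressed, and 2 of 6 rose with CM in CD26- NFs and 5 of 6 in CD26+ NFs. Ifnar2, the signalling chain of the type I receptor, went from 18.9 ± 1.97 CPM (SD, n = 3) to 28.7 ± 2.65 (SD, n = 6) with CM in the CD26- cells, or 0.60 ± 0.103 on the log2 scale (FDR 0.00132), and from 37.2 ± 2.24 to 61.2 ± 6.95 CPM in CD26+ NFs, 0.72 ± 0.0967 (FDR 3.76e-05). Its partner Ifnar1 rose in CD26+ NFs, from 125.6 ± 6.87 to 171.9 ± 15.5 CPM (0.45 ± 0.0670, FDR 9.57e-05), and in CD26- NFs changed by 0.18 ± 0.0670 (FDR 0.0757). Ifngr2, a chain of the interferon gamma receptor, went from 73.4 ± 0.86 to 88.4 ± 4.71 CPM in CD26- NFs (0.27 ± 0.0861, FDR 0.0434) and from 55.7 ± 2.17 to 107.4 ± 13.6 CPM in CD26+ NFs (0.95 ± 0.0888, FDR 1.19e-06). Ifngr1 and Il10rb, the latter a chain of the lambda interferon receptor, rose in CD26+ NFs by 0.25 ± 0.0647 (FDR 0.00732) and 0.68 ± 0.0955 (FDR 5.72e-05). Ifnlr1 was low, with group means from 0.70 to 3.48 CPM, and did not pass in either cell type. Ifngr2, Ifngr1 and Il10rb also passed the test of the difference of the CM effects, at 0.68, 0.34 and 0.45. No receptor was called lower in either cell type, and Ifnar2 and Ifngr2 rose in both. The part of the receptor levels in the member changes was not tested.

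Genes of JAK-STAT signalling and its inhibitors are given here in part. In CD26- NFs, Socs3 and Socs1, feedback inhibitors of JAK kinases, rose by 0.80 ± 0.108 (FDR 0.000273) and 0.69 ± 0.183 (FDR 0.0186), and Stat3 changed by -0.17 ± 0.0519 (FDR 0.0354). In CD26+ NFs, Ptpn11 and Jak1 rose by 0.24 and 0.25, whereas Stat3 fell by 0.26. Ptpn11 and Socs3 passed for the difference of the CM effects, at 0.24 and -0.53.

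Of 13 tested genes that sense nucleic acids or relay to interferon production, 3 changed in CD26- NFs (2 upward) and 8 in CD26+ NFs (7 upward). Over all tested genes the upward and downward shares were 7.88% and 7.28% for the CD26- cells and 15.2% and 13.4% for the CD26+ cells. The same shares apply to the counts of receptors and of further interferon-stimulated genes. The kinase gene Ikbke rose in both, by 0.84 ± 0.185 (FDR 0.00658) and 1.28 ± 0.189 (FDR 9.83e-05), as did Tlr7, the receptor of single-stranded RNA, by 2.27 ± 0.370 (FDR 0.000863) and 1.37 ± 0.390 (FDR 0.0137), from means of 0.56 and 0.53 CPM. Ddx58, which encodes the RNA sensor RIG-I and is itself interferon-inducible, changed by -0.50 ± 0.0718 (FDR 0.000362) in CD26- NFs, from 66.6 to 47.1 CPM. In CD26+ NFs, Tbk1, Myd88, Tlr4, Ticam1 and Mavs rose by 0.23 to 0.56, and Sting1, the adaptor of cytosolic DNA sensing, changed by -0.37 ± 0.0631 (FDR 0.000363). Ddx58, Tbk1 and Sting1 passed for the difference of the CM effects, at 0.55, 0.31 and -0.42.

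Further interferon-stimulated genes that are not members numbered 39 tested of 55. In CD26- NFs 3 rose (Slfn2, Ifi204 and Pml) and 9 fell (Dtx3l, Parp9, Parp12, Apol9b, Ddx60, Nmi, Ifitm3, Ifi47 and Apol9a), with a median of -0.19. In CD26+ NFs 14 rose (Slfn2, Ifitm2, Phf11d, Oas1c, Trim30a, Ifi47, Adar, Oas1b, Gbp9, Ifitm1, Ifi203, Tor3a, Psmb8 and Isg20) and 1 fell (Parp12), with a median of 0.38. For the difference of the CM effects 31 of 39 were above 0 and 9 passed (Ifi47, Oas1c, Adar, Gbp9, Oas1b, Ddx60, Trim30a, Parp9 and Dtx3l), against 4.53% of all tested genes, with a median of 0.58. Ifi47, a further interferon-inducible GTPase, changed by -0.67 ± 0.215 (FDR 0.0438) in CD26- NFs and by 1.26 ± 0.291 (FDR 0.00376) in CD26+ NFs. Slfn2, which restrains the cell cycle of lymphocytes, rose in both, by 1.35 ± 0.217 (FDR 0.000760) and 1.83 ± 0.223 (FDR 1.51e-05), as Ifit2 did among the members.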

How the data were processed

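RNA of 18 cultures was sequenced by the authors from stranded poly(A) libraries (HiSeq 2500 and NovaSeq 6000 are both named and the labels do not assign them, so no batch could be tested). The deposited values are raw counts per Ensembl gene without normalization. The submitters' processing notes name HISAT2 2.1.0, HTSeq and GRCm38, while the annotation release and strand setting are not given in the sources used here. Of 55486 genes, filterByExpr by group kept 14273, which held at least 99.85% of the counts of each library, and 1 row without a gene (0 counts) was left out. TMM scaling and the quasi-likelihood test of edgeR 4.0.16 (glmQLFit and glmQLFTest, R 4.3.3) were applied in a model with a term per group. FDR is the Benjamini-Hochberg adjusted p over all tested genes, and calls were made under 0.05. The study's own tool was DESeq2, run here (1.42.0) as an alternative with RLE and upper-quartile scaling, no filter, only the groups compared, and each library left out. CPM are relative to the TMM-scaled library size. Lines were tested with all line terms together (13344 genes).

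The script was checked on simulated counts. Replicates of a group differed beyond counting error (chi-square over degrees of freedom at least 3.03), so no library was a copy. Deviations from the group means correlated within each of the 6 pairs of libraries that shared a tumour line (r 0.247 to 0.406). The highest r of the CD26- library with a CD26+ library of another line was lower for every line (0.0409 to 0.242). The margin was small for some lines, such as 13-MCB-17 (0.306 against 0.242). The line therefore pairs the CM samples, and an alternative holds it as a replicate block. Members and gene lists were chosen with earlier results of these data known. Values per library are given for members called in a CM effect or in their difference and for the 6 with the smallest p in each comparison of cell types and among lines. Other members are given by range, and promoters for at most 6 members that held a motif match, taken by the smallest p in a CM effect. Intervals from counting were not needed, as all groups had replicates. Some genes of the lists are not reported here. PCR duplicates could not be told apart from separate molecules.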

Additional observations from a re-analysis of the deposited data

Results flagged for a closer look

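Sets of 6 CM libraries were searched for a single library far from the others in 66 combinations of member and cell type, where chance flags about 1 in 20, and 9 were found. In CD26- NFs, the library with CM of 13-MCB-138 (replicate 9) stood apart above the other 5 CM libraries for Ifit1 (5.13 CPM, next 1.63), Isg15 (6.90, next 4.32), Rsad2 (3.63, next 1.16), Mx2 (1.15, next 0.400), Cmpk2 (1.95, next 0.826), Usp18 (4.51, next 1.73) and Irgm2 (6.63, next 3.88). In CD26+ NFs, the library with CM of the same line (replicate 18) stood apart below the others for Parp14 (15.2 CPM, next 21.9) and Zbp1 (1.16 CPM, next 2.25). All 9 flags fell on the 2 libraries of this line.

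The CM effect differed between the cell types, by the test of the difference itself, for 12 members. The CD26+ effect exceeded the CD26- effect on the log2 scale by 1.87 for Gbp2, 1.07 for Parp14, 1.38 for Ifih1, 0.71 for Samd9l, 0.63 for Ifi35, 1.74 for Gbp3, 1.99 for Isg15, 1.25 for Irgm2, 0.88 for Irgm1, 4.07 for Ifit3, 1.12 for Gbp7 and 1.55 for Zbp1.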

How the results depend on the processing

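Counts of members called depended on single libraries and on the log2 limit. They are out of 33 tested members, or of 29 to 38 in the test among lines and where a fit changed the filter. With the study's log2 limit in addition to the FDR, 0 members rose and 0 fell in CD26- NFs, 0 rose in CD26+ NFs, for CD26+ against CD26- NFs the limit left 0 higher and 7 lower under control medium and 1 higher and 0 lower under tumour CM, and 1 had the higher CM effect. With the epithelial marker mean as a term (added after seeing the data) 3 members fell in CD26- NFs, 1 was lower in CD26+ NFs under control medium, and under tumour CM 3 were higher and 1 lower. The cause was not tested. In the same fit the CD26+ minus CD26- difference in tumour CM turned positive for Irf1 (0.34), Ifih1 (0.058), Ifi44 (0.57) and Oas1a (0.21), none past the test. Leaving out 1 library in turn, the members that fell in CD26- NFs ranged from 1 to 21, those that rose in CD26+ NFs from 2 to 11, those higher in control medium from 1 to 2, those lower in tumour CM from 3 to 8, those with the higher CM effect in CD26+ NFs from 2 to 19, and those differing among lines from 0 to 4. Without a filter 1 member differed among lines (Rsad2), where 2475 of 29724 genes did. The line as a replicate block gave 7 higher and 8 lower in tumour CM and 16 with the higher CM effect in CD26+ NFs. DESeq2 gave 17 for the last, with 1588 calls over all genes in either direction against 1075 in the main fit. RLE and upper-quartile scaling gave 8 and 6 members that rose in CD26+ NFs. Over all genes 2153 and 1927 rose in these fits, against 2169 in the main fit. Of 75 member values called, 4 reversed in any alternative, those given above. Members under about 20 counts per library, such as Ifit3, Cmpk2 and Mx2, are limited by depth.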
